A study of Mus musculus with 12 samples.

Results

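Collagens are secreted proteins whose chains wind around one another into stiff helices. The probe sets of the array whose only gene symbol had the form Col, a type number, the letter a and a chain number were taken as the family, with no filter on signal. This gave 82 probe sets of 42 genes, among 45037 probe sets tested and 18193 genes with 1 symbol. By class, 18 probe sets of 9 genes belonged to the fibrillar types (1, 2, 3, 5 and 11), 12 of 6 genes to type 4 of basement membranes, 7 of 5 genes to type 6, and 45 of 22 genes to the remaining types. Each gene is represented by its probe set of highest mean log2 signal.

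The arrays were Affymetrix mouse arrays, and the values are MAS5 signals, an intensity on a linear scale. They measured 2 haploid and 2 diploid lines of epiblast stem cells (EpiSC), pluripotent cells that resemble the epiblast after implantation, each line with 3 arrays labelled as biological replicates. Both haploid lines, EpiSC-2 and EpiSC-1, carry the strain label 129Sv and both diploid lines, EpiSC-2 and EpiSC-1, the label B6D2F1, so that ploidy and strain cannot be told apart. The cultures all had N2B27 medium to which bFGF and Activin A had been added. Ages, alleles and the use of feeder cells are not given in the sources used here, and DNA content was not measured on the arrays.

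Fibrillar collagens assemble outside the cell into banded fibres and are known chiefly from mesenchymal cells, while type 4 collagen forms the sheet-like network of basement membranes on which the epiblast rests. Type 6 collagen builds beaded filaments between these kinds of matrix. New chains are hydroxylated, folded in the endoplasmic reticulum, trimmed of their end peptides and cross-linked by lysyl oxidases, and cells sense the matrix through integrins and discoidin receptors.

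The start regions of the 4 called genes with the highest haploid to diploid difference that the RefSeq table held are shown here. These genes were chosen for that difference, so their shared rise follows from the choice. Each is the 250 bases directly before the annotated start on GRCm38.p6, written along the gene's strand. Capitals mark the hexamer TATAAA, the pentamer CCAAT or the hexamer GGGCGG on either strand. The letters ATTGG, and likewise the letters CCGCCC, are matches read on the opposite strand. No match overlapped another.
Col3a1 (chr1:45311288-45311537, plus strand): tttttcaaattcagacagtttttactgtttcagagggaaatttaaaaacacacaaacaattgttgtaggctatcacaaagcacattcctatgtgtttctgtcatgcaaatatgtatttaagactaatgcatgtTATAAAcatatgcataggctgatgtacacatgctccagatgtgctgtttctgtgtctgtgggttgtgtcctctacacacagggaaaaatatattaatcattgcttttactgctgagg
Col8a1 (chr16:57754738-57754987, minus strand): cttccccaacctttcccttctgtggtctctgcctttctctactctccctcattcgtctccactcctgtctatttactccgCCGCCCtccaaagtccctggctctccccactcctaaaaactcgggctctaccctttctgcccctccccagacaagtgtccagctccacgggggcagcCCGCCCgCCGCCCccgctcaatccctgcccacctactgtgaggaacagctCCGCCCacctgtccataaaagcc
Col1a2 (chr6:4505368-4505617, plus strand): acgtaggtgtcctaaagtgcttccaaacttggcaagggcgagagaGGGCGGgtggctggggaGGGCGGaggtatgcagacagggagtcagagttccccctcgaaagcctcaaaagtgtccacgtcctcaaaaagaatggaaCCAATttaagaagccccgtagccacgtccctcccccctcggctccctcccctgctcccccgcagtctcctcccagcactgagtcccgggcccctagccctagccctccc
Col11a1 (chr3:114030290-114030539, plus strand): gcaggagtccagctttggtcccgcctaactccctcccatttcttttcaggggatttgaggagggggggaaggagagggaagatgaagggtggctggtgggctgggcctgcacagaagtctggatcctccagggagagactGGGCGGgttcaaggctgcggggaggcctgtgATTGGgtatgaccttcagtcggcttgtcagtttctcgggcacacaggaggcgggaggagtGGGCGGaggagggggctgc

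The sequences differed in composition. The Col3a1 window held 35.2% G and C and 1 TATAAA, which began 117 bases before the start. The Col1a2 window, at 62.0%, had CCAAT at 109 bases and GGGCGG at 205 and 188 bases before the start. The Col11a1 window, at 62.4%, had GGGCGG at 110 and 19 bases and CCAAT on the opposite strand at 79 bases. The Col8a1 window, at 60.8%, held GGGCGG on the opposite strand at 170, 73, 66 and 23 bases and neither of the other motifs. Of 42 genes, 33 were in the table, with 36 windows. Col1a1, Col2a1, Col4a3, Col5a2, Col9a3, Col12a1, Col14a1, Col22a1 and Col26a1 were not matched. TATAAA stood in 5 of the 36 windows (13.9%) and in 12.4% of all 32851 windows, CCAAT in 13 (36.1%) against 33.8%, and GGGCGG in 21 (58.3%) against 32.7%. The median content of G and C was 59.0% in collagen windows, from 35.2% to 76.4%, and 52.4% in all windows. Binding to these windows was not measured.

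The first comparison asked how the family differed between haploid and diploid EpiSC. Collagens of all 4 classes were higher in the haploid lines, and none passed the threshold in the other direction. Of 42 genes, 20 passed an adjusted p of 0.05 as higher and 0 as lower, against 11.5% and 9.26% of all genes with 1 symbol. Of the 20, 15 differed at least 4-fold and 10 at least 8-fold. The fibrillar genes Col3a1 and Col1a2 and the short-chain collagen Col8a1 reached signals in haploid cells that were many times those in diploid cells. The median log2 difference, haploid minus diploid, was 1.27 over the 42 genes and 0.0042 over all genes.

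By probe set, 34 of 82 passed as higher and 0 as lower, against 8.58% and 6.29% of all probe sets. All 6 haploid arrays lay above all 6 diploid arrays in 22 genes, where 11.7% of all genes did so, and in 0 genes lay below them, against 9.75%. By probe set they lay above in 36, against 9.12%, and below in 0, against 6.87%. These 22 were the 20 called genes, Col25a1 and Col26a1. Among fibrillar genes 7 of 9 were called, with a median log2 difference of 3.0. In type 4 it was 3 of 6 with a median of 1.28, in type 6 it was 3 of 5 with 1.17, and in the remaining types 7 of 22 with 1.23. These calls are from the fit with the line as a block, which called mostly unchanged probe sets on simulated data with spread between lines. With the 4 line means as the units, 12 of the 20 calls were kept and 0 genes were lower, against 2.03% and 0.813% of all genes. The 12 were Col1a1, Col1a2, Col3a1, Col4a1, Col4a2, Col4a5, Col6a1, Col8a1, Col8a2, Col11a1, Col12a1 and Col27a1. Their adjusted p with line means as units ran from 0.00113 (Col8a1) to 0.0451 (Col12a1), with Col3a1 at 0.00129 and Col1a2 at 0.00368.

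**Figure D1:**
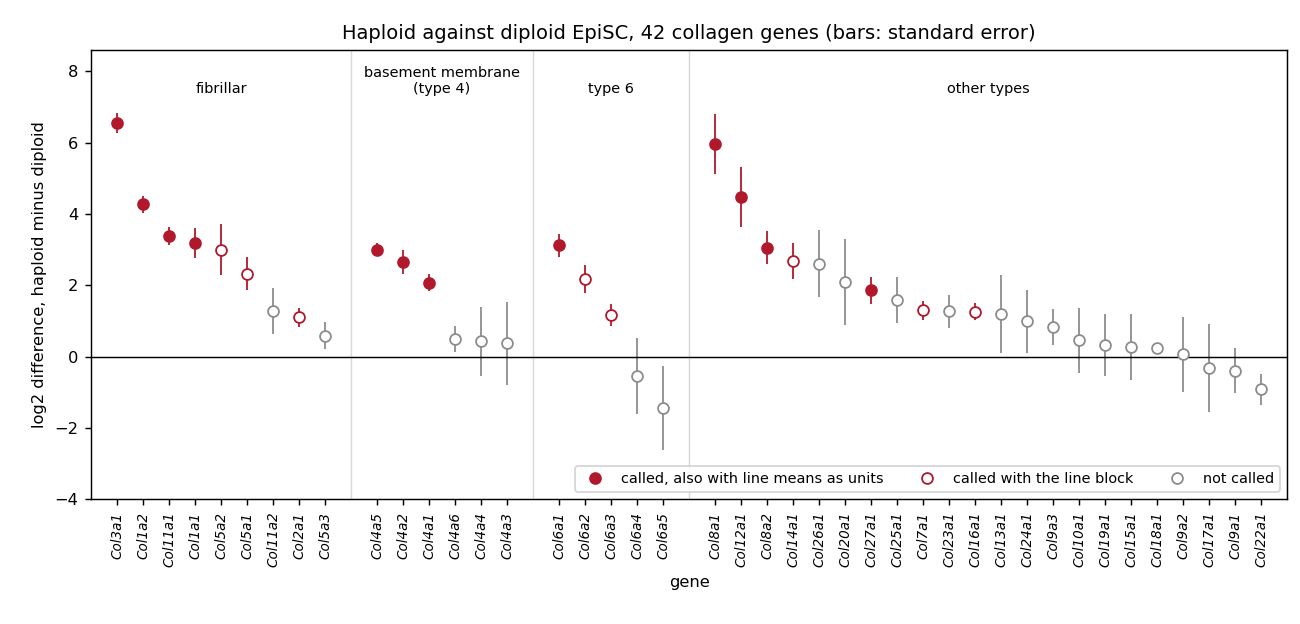
Haploid minus diploid log2 difference of each of the 42 collagen genes (vertical axis) by class and gene (horizontal axis), with bars for the standard error. Filled red points are the 12 genes called also with line means as units, open red points the other called genes and grey points the genes not called, and every red point lies above 0.

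Markers of other cells moved with this comparison. Of 13 fibroblast feeder markers, 11 were higher and 0 lower in haploid cells, against 11.5% and 9.26% of all genes. Their summed signal was 23312 to 24025 in haploid EpiSC-2 and 16684 to 17020 in haploid EpiSC-1, against 5247 to 5351 in diploid EpiSC-2 and 1413 to 1487 in diploid EpiSC-1. Acta2 and Tagln together carried most of this sum in every line. In the same order of lines, the means were 12964, 7100, 1099 and 512 for Acta2 and 6068, 4255, 3502 and 327 for Tagln. Of this list 12 markers stood above the median probe-set signal of 62.6 in a haploid line and 7 in a diploid line. The marker calls were made with the line block and were not counted with line means as units. No marker was listed at 0. The exceptions among the 13 were Thy1 (-0.25, not called) and Fap, whose line means were 28.0 and 15.7 in haploid EpiSC-2 and EpiSC-1, against 24.9 and 13.7 in diploid EpiSC-2 and EpiSC-1. The part of such cells in the collagen differences was not tested, and in bulk RNA more cells of a type cannot be told apart from more RNA per cell. The 3' to 5' signal ratio of the actin controls was 1.34 to 1.42 on haploid and 1.46 to 1.68 on diploid arrays, and its part was not tested either.

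A smaller share of each other list was called. Of 10 epiblast markers 2 were higher and 4 lower in haploid cells, and all 10 stood above the median probe-set signal in a haploid and in a diploid line. Their summed signals were 50295 to 51832 and 38185 to 38937 in haploid EpiSC-2 and EpiSC-1, against 56036 to 57626 and 68330 to 71749 in diploid EpiSC-2 and EpiSC-1. The higher ones were Sox2 (1.85, adjusted p = 4.01e-08) and Lefty1 (1.09, adjusted p = 5.86e-06). Pou5f1, the gene of Oct4 and among the lower ones, had line means of 6884 and 4264 in haploid EpiSC-2 and EpiSC-1, against 8879 and 9595 in diploid EpiSC-2 and EpiSC-1. Otx2, also among the lower ones, had 2290 and 74.0, against 2133 and 3962, in the same order. Fgf5, not called, had 2424 and 86.9, against 2332 and 3621. In haploid EpiSC-2 against haploid EpiSC-1, 6 of the 10 were higher and 2 lower, where 14.5% and 18.1% of all genes were called. Of 11 parietal endoderm markers 3 were higher, of 7 mesoderm markers 2 and of 5 cartilage markers 1, while 0 of these were lower. None of 7 visceral endoderm markers or of 4 endothelial markers was called. With lists this short, such counts say little beside the 11.5% of all genes called higher and 9.26% called lower. Arrays had median signals of 63.6 to 76.5. The log2 correlation between arrays of a line, over the brighter probe sets, was 0.987 to 0.99.

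Among the fibrillar genes, Col3a1 encodes the only chain of type 3 collagen, which forms fibres of soft tissues. Col3a1 (Entrez 12825, chromosome 1) had signals of 7008, 6895 and 8024 in haploid EpiSC-2 and 8533, 8095 and 7813 in haploid EpiSC-1, against 123, 152 and 116 in diploid EpiSC-2 and 60.5, 43.6 and 51.3 in diploid EpiSC-1. Every haploid array lay far above every diploid array, and on this probe set the diploid lines were apart from each other too. Col3a1 differed by 6.56 ± 0.28 (log2, SE, adjusted p = 4.35e-10), from 6 arrays of 2 lines on each side. The other probe set of Col3a1 gave 5.87 (adjusted p = 1.61e-09).

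Type 1 collagen, the main protein of bone, skin and tendon, is built from the chains of Col1a1 and Col1a2. Col1a2 (Entrez 12843, chromosome 6) had signals of 5164, 5059 and 4910.3 in haploid EpiSC-2 and 6265, 6026 and 6672 in haploid EpiSC-1, against 444, 396 and 449.9 in diploid EpiSC-2 and 213, 165 and 224 in diploid EpiSC-1. The ploidies did not overlap, and no haploid array came near a diploid one. Col1a2 differed by 4.27 ± 0.24 (log2, SE, adjusted p = 7.43e-09), with another probe set at 3.94 (adjusted p = 6.05e-08) and a dim one at 2.94 (adjusted p = 0.0521), which was not called.

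The partner chain moved the same way. Col1a1 (Entrez 12842, chromosome 11) had signals of 477, 444 and 379.9 in haploid EpiSC-2 and 669.9, 667 and 460.0 in haploid EpiSC-1, against 75.9, 134 and 109 in diploid EpiSC-2 and 23.9, 34.5 and 32.2 in diploid EpiSC-1. Its haploid arrays were spread more widely than those of Col1a2 but did not meet the diploid ones. Col1a1 differed by 3.18 ± 0.43 (log2, SE, adjusted p = 6.61e-05), and its other probe set by 3.71 (adjusted p = 0.00574).

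Col11a1 encodes a minor fibrillar chain that is known from the core of cartilage fibres. Col11a1 (Entrez 12814, chromosome 3) had signals of 398, 429.8 and 419.7 in haploid EpiSC-2 and 670.5, 605 and 594 in haploid EpiSC-1, against 54.3, 45.1 and 55.02 in diploid EpiSC-2 and 58.97, 35.5 and 47.6 in diploid EpiSC-1. Both diploid lines were below the median probe set, and both haploid lines were several times higher. The log2 difference was 3.38 ± 0.25 (log2, SE, adjusted p = 1.39e-07), and 3.64 (adjusted p = 9.71e-07) on the other probe set. Of 5 cartilage markers only Sox9 was called. Acan, which encodes aggrecan, had line means of 41.2 and 104 in haploid EpiSC-2 and EpiSC-1, against 42.3 and 62.0 in diploid EpiSC-2 and EpiSC-1.

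**Figure D2:**
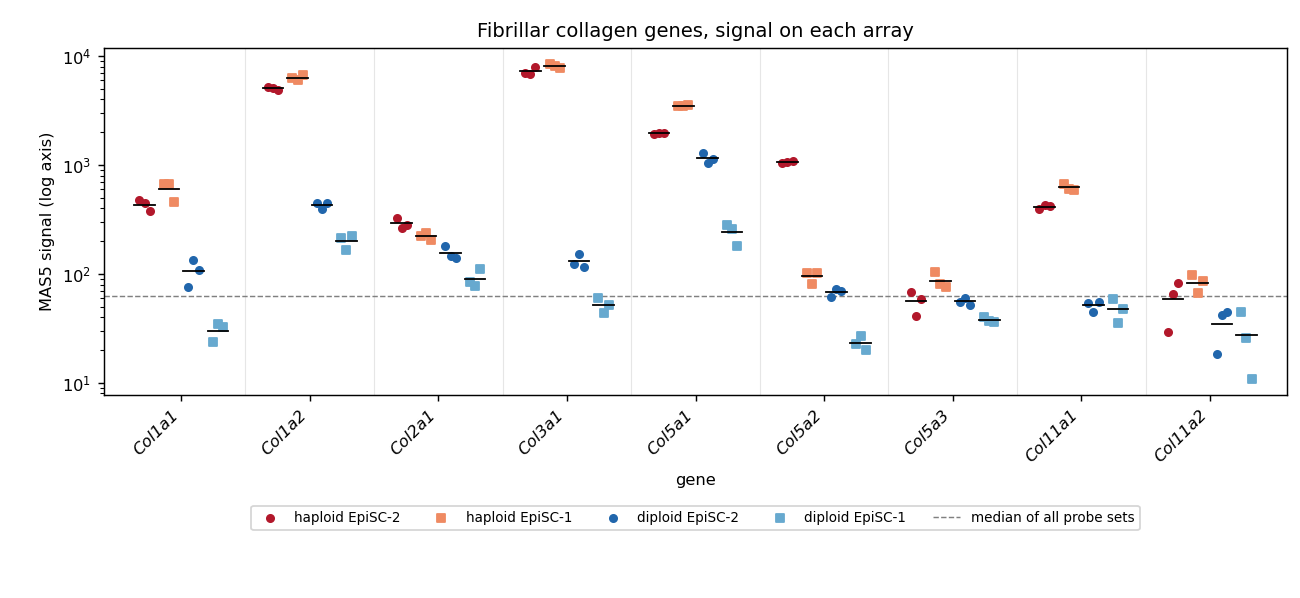
MAS5 signal of the 9 fibrillar collagen genes on each of the 12 arrays (vertical log axis), by gene (horizontal axis), with a short line at each line's mean and a dashed line at the median probe-set signal of 62.6. Col3a1 and Col1a2 part the ploidies most widely, Col5a2 is high in haploid EpiSC-2 alone, and in each of the 9 genes the lowest line mean is that of diploid EpiSC-1.

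Type 5 collagen is a minor partner of type 1 that is known to start and limit fibre growth. Col5a1 (Entrez 12831, chromosome 2) had signals of 1919, 1972 and 1978 in haploid EpiSC-2 and 3449, 3461 and 3559 in haploid EpiSC-1, against 1299.7, 1045 and 1126 in diploid EpiSC-2 and 284, 259.9 and 179.7 in diploid EpiSC-1. The ploidies did not overlap, but diploid EpiSC-2 lay closer to haploid EpiSC-2 than to diploid EpiSC-1. Col5a1 differed by 2.32 ± 0.46 (log2, SE, adjusted p = 0.00199). The call was lost with line means as units (adjusted p = 0.145) and without haploid EpiSC-1 (adjusted p = 0.0609).

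The other called type 5 chain was bright in 1 of the haploid lines. Col5a2 (Entrez 12832, chromosome 1) had signals of 1042, 1065 and 1097 in haploid EpiSC-2 and 103, 80.2 and 103 in haploid EpiSC-1, against 61.9, 73.2 and 69.8 in diploid EpiSC-2 and 22.9, 26.8 and 20.2 in diploid EpiSC-1. Haploid EpiSC-1 stood just above diploid EpiSC-2, while haploid EpiSC-2 stood an order of magnitude above both. Col5a2 differed by 3.0 ± 0.71 (log2, SE, adjusted p = 0.0079). Against the mean of both diploid lines it was 4.75 in haploid EpiSC-2 and 1.25 in haploid EpiSC-1. With haploid EpiSC-2 left out the difference was 1.25 (adjusted p = 0.143) and with diploid EpiSC-1 left out 2.22 (adjusted p = 0.113), so the call was lost either way. It was lost also with line means as units (adjusted p = 0.224) and with its probe sets averaged (2.51, adjusted p = 0.130).

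Type 2 collagen is the main fibre of cartilage. Col2a1 (Entrez 12824, chromosome 15) had signals of 327, 265 and 281 in haploid EpiSC-2 and 224, 239 and 203 in haploid EpiSC-1, against 182, 145 and 141 in diploid EpiSC-2 and 84.9, 76.99 and 110.2 in diploid EpiSC-1. The lowest haploid array lay above the highest diploid array by a small margin. Col2a1 differed by 1.10 ± 0.26 (log2, SE, adjusted p = 0.00775), and the call was lost with line means as units (adjusted p = 0.221), with haploid EpiSC-2 left out (adjusted p = 0.0634) and with the filter on low signals (adjusted p = 0.0589).

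Of the fibrillar genes not called, the brightest was Col5a3, a further type 5 chain. Col5a3 (Entrez 53867, chromosome 9) had signals of 68.8, 40.7 and 58.9 in haploid EpiSC-2 and 104, 80.7 and 75.8 in haploid EpiSC-1, against 55.03, 60.7 and 51.8 in diploid EpiSC-2 and 39.9, 36.7 and 36.3 in diploid EpiSC-1. Haploid and diploid arrays overlapped, and the log2 difference was 0.59 ± 0.38 (log2, SE, adjusted p = 0.426). Col11a2, a dim gene with line means (± SD, n = 3) of 59.2 ± 26.9 in haploid EpiSC-2 and 83.4 ± 15.5 in haploid EpiSC-1, against 35 ± 14.4 in diploid EpiSC-2 and 27.3 ± 17.1 in diploid EpiSC-1, was at 1.28 ± 0.66 (log2, SE, adjusted p = 0.263).

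Type 4 collagen chains form the network of basement membranes, and Col4a1 and Col4a2 encode the chains found in nearly all of them. Col4a1 (Entrez 12826, chromosome 8) had signals of 2709, 2633 and 2539 in haploid EpiSC-2 and 1881, 1858 and 1974 in haploid EpiSC-1, against 796, 722 and 804 in diploid EpiSC-2 and 413, 298 and 392 in diploid EpiSC-1. All 4 lines were well above the median probe set, and the lines did not overlap. Col4a1 differed by 2.08 ± 0.24 (log2, SE, adjusted p = 1.91e-05), and its other probe set by 1.77 (adjusted p = 0.0114).

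Col4a2 is the neighbour of Col4a1 on chromosome 8 and pairs with it in the network. Col4a2 (Entrez 12827, chromosome 8) had signals of 1072, 1041 and 975 in haploid EpiSC-2 and 843, 956 and 835 in haploid EpiSC-1, against 184, 228 and 269 in diploid EpiSC-2 and 134, 125 and 64.2 in diploid EpiSC-1. Haploid arrays lay several times above all diploid arrays. Col4a2 differed by 2.65 ± 0.33 (log2, SE, adjusted p = 3.66e-05).

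Col4a5 encodes a chain of the kidney, skin and smooth muscle networks. Col4a5 (Entrez 12830, chromosome X) had signals of 797, 788 and 682 in haploid EpiSC-2 and 681, 676 and 720.2 in haploid EpiSC-1, against 99.2, 103 and 113 in diploid EpiSC-2 and 76.8, 92.2 and 66.1 in diploid EpiSC-1. Each ploidy was tight, with haploid arrays several times above diploid ones. Col4a5 differed by 3.0 ± 0.19 (log2, SE, adjusted p = 2.10e-08), with the other probe set at 2.24 (adjusted p = 5.36e-05). Its neighbour on the X chromosome, Col4a6 (Entrez 94216, chromosome X), had signals of 66.1, 68.4 and 63.4 in haploid EpiSC-2 and 54.5, 80.96 and 77.8 in haploid EpiSC-1, against 55.1, 33.7 and 36.9 in diploid EpiSC-2 and 56.5, 67.6 and 49.8 in diploid EpiSC-1. These overlapped, and Col4a6 was not called, at 0.49 ± 0.37 (log2, SE, adjusted p = 0.53). A second Col4a6 probe set was called at 2.32 (adjusted p = 0.0363), from line means of 67.6 and 63.4 in haploid EpiSC-2 and EpiSC-1, against 6.41 and 30.0 in diploid EpiSC-2 and EpiSC-1.

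Col4a3 and Col4a4, the remaining type 4 chains, were dim in every line and were at 0.37 and 0.43 on the log2 scale, neither called. Parietal endoderm cells lay down a thick basement membrane, and the summed signal of their 11 markers was 15287 to 16632 in haploid EpiSC-2 and 17482 to 17843 in haploid EpiSC-1, against 14358 to 15449 in diploid EpiSC-2 and 8444 to 9184 in diploid EpiSC-1. The 3 called were Lamb1, Dab2 and Pth1r. The others were not called, among them Sox17 (-1.19) and Lamc1 (-0.29) with negative differences. Sparc, also not called, was a large part of the sum. Its line means were 8048 and 10022 in haploid EpiSC-2 and EpiSC-1, against 9635 and 2718 in diploid EpiSC-2 and EpiSC-1. The part of parietal endoderm cells in the type 4 differences was not tested.

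Type 6 collagen is assembled from the chains of Col6a1 and Col6a2 with a further, larger chain. Col6a1 (Entrez 12833, chromosome 10) had signals of 293, 259 and 301 in haploid EpiSC-2 and 518, 556 and 497 in haploid EpiSC-1, against 65.5, 40.6 and 30.5 in diploid EpiSC-2 and 49.2, 39.2 and 47.5 in diploid EpiSC-1. Diploid arrays were near or below the median probe set, and all haploid arrays lay far above. Col6a1 differed by 3.13 ± 0.32 (log2, SE, adjusted p = 5.15e-06). Col6a2 (Entrez 12834, chromosome 10) had signals of 163, 204 and 216 in haploid EpiSC-2 and 514, 451 and 509 in haploid EpiSC-1, against 89.9, 98.2 and 56.8 in diploid EpiSC-2 and 42.4, 57.9 and 80.7 in diploid EpiSC-1. The haploid lines themselves were apart, and the lowest haploid array was above every diploid array. Col6a2 differed by 2.18 ± 0.39 (log2, SE, adjusted p = 9.17e-04), and its call was lost with line means as units (adjusted p = 0.0739). Col6a1 and Col6a2 are neighbours on chromosome 10.

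The larger chain, that of Col6a3 (Entrez 12835, chromosome 1), had signals of 138, 109.7 and 154 in haploid EpiSC-2 and 180.4, 185 and 165 in haploid EpiSC-1, against 53.6, 93.1 and 52.99 in diploid EpiSC-2 and 78.5, 80.3 and 60.04 in diploid EpiSC-1. All haploid arrays were above all diploid arrays, by little at the margin. Its log2 difference was 1.17 ± 0.31 (log2, SE, adjusted p = 0.0153), and the call was lost with line means as units (adjusted p = 0.179), with the filter on low signals (adjusted p = 0.128) and without haploid EpiSC-1 (adjusted p = 0.114). The related chains Col6a4 and Col6a5 were dim in every line and not called. Col6a4 (Entrez 68553, chromosome 9) had signals of 17.4, 32.6 and 29.1 in haploid EpiSC-2 and 18.7, 1.79 and 25.4 in haploid EpiSC-1, against 20.1, 33.7 and 49.4 in diploid EpiSC-2 and 33.7, 8.83 and 13.3 in diploid EpiSC-1. Its arrays overlapped, with a log2 difference of -0.54 ± 1.07 (log2, SE, adjusted p = 0.894).

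In the remaining types, Col8a1 and Col8a2 encode the short chains of type 8 collagen, known from the membrane behind the cornea and from blood vessels. Col8a1 (Entrez 12837, chromosome 16) had signals of 929, 1012 and 972 in haploid EpiSC-2 and 825, 720.1 and 679 in haploid EpiSC-1, against 14.5, 29.9 and 7.84 in diploid EpiSC-2 and 25.1, 2.5 and 29.9 in diploid EpiSC-1. Haploid arrays were bright and every diploid array was below the median probe set. The log2 difference was 5.96 ± 0.83 (log2, SE, adjusted p = 9.92e-05), second to that of Col3a1 in the family, with another probe set at 4.02 (adjusted p = 4.54e-05) and a dim one at 0.51 (adjusted p = 0.935). Detection calls were not used here, so a fold against so dim a group is uncertain in size. Col8a2 (Entrez 329941, chromosome 4) had signals of 419.9, 391 and 419.6 in haploid EpiSC-2 and 231, 289.8 and 287 in haploid EpiSC-1, against 56.05, 17.8 and 19.6 in diploid EpiSC-2 and 56.9, 61.2 and 58.5 in diploid EpiSC-1. It too parted the ploidies without overlap, by 3.06 ± 0.45 (log2, SE, adjusted p = 1.70e-04).

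Col12a1 and Col14a1 encode collagens that decorate the surface of type 1 fibres. Col12a1 (Entrez 12816, chromosome 9) had signals of 492, 510.3 and 490.1 in haploid EpiSC-2 and 438, 526 and 520.2 in haploid EpiSC-1, against 76.97, 50 and 69.2 in diploid EpiSC-2 and 2.9, 28.3 and 5.59 in diploid EpiSC-1. Haploid arrays agreed closely, whereas diploid EpiSC-1 ranged over nearly an order of magnitude near the background. The log2 difference was 4.47 ± 0.85 (log2, SE, adjusted p = 0.00149), but none of its 3 other probe sets was called, at 1.09 (adjusted p = 0.17), -1.17 (adjusted p = 0.576) and 0.02 (adjusted p = 0.998). With its probe sets averaged the difference was 1.10 (adjusted p = 0.168).

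Col14a1 (Entrez 12818, chromosome 15) had signals of 109.7, 113 and 93.6 in haploid EpiSC-2 and 504, 530.4 and 543 in haploid EpiSC-1, against 37.01, 40.95 and 55.9 in diploid EpiSC-2 and 38.8, 26.8 and 28.3 in diploid EpiSC-1. Haploid EpiSC-1 stood far above the other 3 lines, with haploid EpiSC-2 next. Col14a1 differed by 2.67 ± 0.50 (log2, SE, adjusted p = 0.00137), and the call was lost with line means as units (adjusted p = 0.12) and with its probe sets averaged (2.07, adjusted p = 0.0619). A further fibre-associated gene is Col16a1. Col16a1 (Entrez 107581, chromosome 4) had signals of 319, 219 and 301 in haploid EpiSC-2 and 400.0, 403 and 425 in haploid EpiSC-1, against 140.2, 157 and 98.9 in diploid EpiSC-2 and 153, 142 and 161 in diploid EpiSC-1. The ploidies did not overlap, and Col16a1 differed by 1.26 ± 0.24 (log2, SE, adjusted p = 0.00173), a call lost with line means as units (adjusted p = 0.118).

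Col7a1 encodes the anchoring fibril under the epidermis. Col7a1 (Entrez 12836, chromosome 9) had signals of 596, 558 and 543 in haploid EpiSC-2 and 783, 713 and 829 in haploid EpiSC-1, against 467, 343 and 441 in diploid EpiSC-2 and 177, 167 and 184 in diploid EpiSC-1. On the log2 scale diploid EpiSC-2 was nearer to the haploid lines than to diploid EpiSC-1. The log2 difference was 1.29 ± 0.27 (log2, SE, adjusted p = 0.00346), and the call was lost with line means as units (adjusted p = 0.2) and without haploid EpiSC-1 (adjusted p = 0.0711). Col27a1 belongs to a separate group of fibre-forming chains known from cartilage. Col27a1 (Entrez 373864, chromosome 4) had signals of 256, 351 and 296 in haploid EpiSC-2 and 251, 294 and 250.1 in haploid EpiSC-1, against 109, 70.6 and 105 in diploid EpiSC-2 and 108, 36.4 and 67.2 in diploid EpiSC-1. No haploid array met a diploid one. Col27a1 differed by 1.86 ± 0.38 (log2, SE, adjusted p = 0.00263), with the other probe set at 0.81 (adjusted p = 0.0321). With the filter on low signals its adjusted p was 0.0605.

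**Figure D3:**
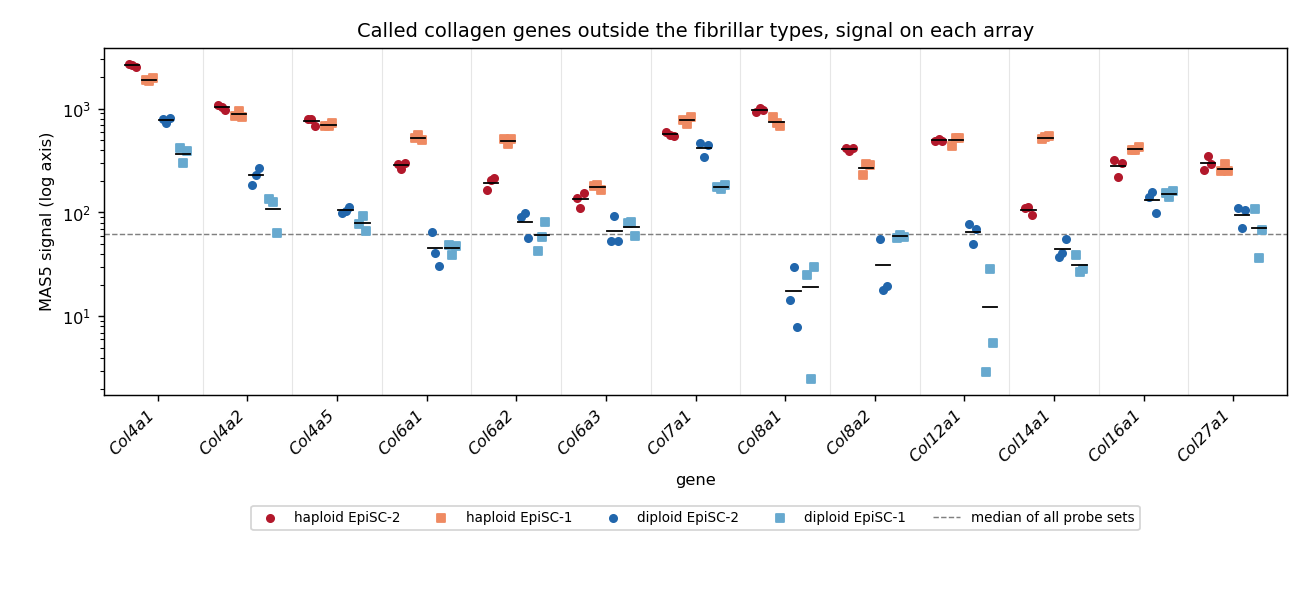
MAS5 signal of the 13 called collagen genes outside the fibrillar types on each array (vertical log axis), by gene (horizontal axis), with a short line at each line's mean and a dashed line at the median probe-set signal of 62.6. Haploid points lie above diploid points for every gene, and Col14a1 and Col6a2 show the widest gaps between the haploid lines.

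The brightest gene of the remaining types that was not called was Col18a1, whose collagen is part of basement membranes and releases endostatin. Col18a1 (Entrez 12822, chromosome 10) had signals of 1137, 1104 and 1204 in haploid EpiSC-2 and 1149, 1114 and 1134 in haploid EpiSC-1, against 857, 792 and 895 in diploid EpiSC-2 and 1123, 1103 and 1075 in diploid EpiSC-1. On this probe set the lines were within a narrow range and diploid EpiSC-1 met the haploid lines. The difference was 0.24 ± 0.11 (log2, SE, adjusted p = 0.21). Without diploid EpiSC-1 it was 0.43 and passed (adjusted p = 0.00709). Its other probe set was at 0.23 (adjusted p = 0.443), with line means of 742 and 1153 in haploid EpiSC-2 and EpiSC-1, against 774 and 806 in diploid EpiSC-2 and EpiSC-1, and its log2 difference of EpiSC-2 minus EpiSC-1 within the haploid cells was -0.64 (adjusted p = 3.63e-06).

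In all, 22 genes were not called, and 17 of them had a positive log2 difference. Every line mean of 13 of these 22 lay under the median probe-set signal of 62.6, so little can be read from them. These 13 were Col4a3, Col4a4, Col6a4, Col6a5, Col9a1, Col9a2, Col9a3, Col10a1, Col13a1, Col15a1, Col17a1, Col19a1 and Col24a1. The other 9 were Col4a6, Col5a3, Col11a2, Col18a1, Col20a1, Col22a1, Col23a1, Col25a1 and Col26a1. Col26a1 was at 2.60 ± 0.94 (log2, SE, adjusted p = 0.0776) and Col25a1 at 1.58 ± 0.65 (log2, SE, adjusted p = 0.13), and each had all haploid arrays above all diploid arrays. Col23a1, a collagen that spans the cell membrane, was at 1.27 ± 0.47 (log2, SE, adjusted p = 0.0911), while another of its probe sets was called at 3.14 (adjusted p = 5.35e-04). Col22a1 was at -0.92 ± 0.43 (log2, SE, adjusted p = 0.21).

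Of 27 genes with several probe sets, 7 had probe sets that differed in call, and 0 had probe sets called in opposite directions. Of 40 probe sets that did not stand for their gene, 14 were called higher. Of the 13 called genes with several probe sets, 11 had another probe set that was called as well. The 2 without one were Col5a2 and Col12a1, named after their values were seen.

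The next comparisons set the lines of each ploidy against each other, which shows how far the family varied without a change of ploidy or strain label. The diploid lines differed mostly one way, with 6 of 9 fibrillar and 3 of 6 type 4 genes called higher in diploid EpiSC-2 than in diploid EpiSC-1. Of 42 genes, 12 were higher and 2 lower, against 15.6% and 16.5% of all genes, with a median log2 difference of 0.45 and of 0.03 over all genes. By probe set, 15 of 82 were higher and 3 lower, against 11% and 14.1%. Of 12 type 4 probe sets 3 were higher and 1 lower. Of 9 fibrillar genes 6 were higher and 0 lower, with a median of 1.11, of 6 type 4 genes 3 were higher, and of 5 type 6 genes 0 were called. Of the 13 feeder markers 5 were higher and 2 lower in diploid EpiSC-2. Their summed signal, given above, was carried mostly by Tagln, with line means of 3502 in diploid EpiSC-2 and 327 in diploid EpiSC-1, and by Acta2, with 1099 and 512, while Thy1 (-0.90, adjusted p = 0.00122) and Twist2 (-1.45, adjusted p = 0.0110) were lower. The part of these markers was not tested.

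Col5a1 had the highest difference of the fibrillar genes, at 2.28 ± 0.12 (adjusted p = 9.35e-10) in diploid EpiSC-2 minus diploid EpiSC-1 (log2, SE, 3 arrays each). Col1a1 followed at 1.79 ± 0.22 (adjusted p = 9.12e-06), Col5a2 at 1.56 ± 0.19 (adjusted p = 7.82e-06) and Col3a1 at 1.33 ± 0.11 (adjusted p = 2.03e-07). Col1a2 was at 1.11 ± 0.09 (adjusted p = 1.38e-07) and Col2a1 at 0.79 ± 0.16 (adjusted p = 0.00163), so every fibrillar gene but the type 11 chains and Col5a3 was higher. In type 4, Col4a2 was at 1.13 ± 0.21 (adjusted p = 5.55e-04), Col4a1 at 1.09 ± 0.09 (adjusted p = 2.39e-07) and Col4a5 at 0.43 ± 0.13 (adjusted p = 0.0179). The other probe sets of Col3a1 (-0.18, adjusted p = 0.646), Col1a1 (1.36, adjusted p = 0.167) and Col4a1 (0.64, adjusted p = 0.224) were not called. Of the other Col1a2 probe sets, 1 was called (1.24, adjusted p = 5.66e-07) and a dim one was not (2.09, adjusted p = 0.0656). The anchoring fibril gene Col7a1 was at 1.23 ± 0.11 (adjusted p = 2.56e-07). Col12a1 had a difference of 3.06 ± 0.54 (adjusted p = 3.59e-04) and Col26a1 of 2.44 ± 0.68 (adjusted p = 0.0137), with diploid EpiSC-1 near the background in both. The 2 lower genes were Col8a2, at -1.13 ± 0.32 (adjusted p = 0.0146), and Col18a1, at -0.38 ± 0.06 (adjusted p = 1.45e-04), the first with a wide spread in diploid EpiSC-2.

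Between the haploid lines 2 of 42 collagen genes were higher and 9 lower in EpiSC-2 than in EpiSC-1, against 14.5% and 18.1% of all genes. Lower calls outnumbered higher ones over all genes too, and the share of lower collagen genes was near that of all genes. The median log2 difference was -0.12, and -0.08 over all genes. By probe set, 3 were higher and 12 lower, against 10.5% and 12.9%. The scaling matters here. Centring arrays on their medians moved the median of all genes by 0.16 and left 5 of the 9 lower calls, losing Col11a1 (-0.42, adjusted p = 0.106), Col1a2 (-0.17, adjusted p = 0.281), Col7a1 (-0.29, adjusted p = 0.0734) and Col16a1 (-0.41, adjusted p = 0.0844). Of the 13 feeder markers 2 were higher in haploid EpiSC-2, Acta2, with line means of 12964 in haploid EpiSC-2 and 7100 in haploid EpiSC-1, and Tagln, with 6068 and 4255. Another 2 were lower, Pdgfrb (-0.64, adjusted p = 0.00664) and Fbln2 (-1.96, adjusted p = 8.05e-07), so that the higher sum in haploid EpiSC-2 given above came from Acta2 and Tagln. The part of these markers was not tested.

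The genes that stood out were Col5a2 and Col14a1, in opposite directions. Col5a2 was at 3.50 ± 0.19 (adjusted p = 1.39e-09) in haploid EpiSC-2 minus haploid EpiSC-1 (log2, SE, 3 arrays each), and its other probe set at 3.86 (adjusted p = 0.0131). Its neighbour on chromosome 1, Col3a1, was at -0.16 ± 0.11 (adjusted p = 0.391) and not called. Col14a1 was at -2.32 ± 0.23 (adjusted p = 1.10e-06). The type 6 neighbours were both lower, Col6a2 at -1.35 ± 0.24 (adjusted p = 4.50e-04) and Col6a1 at -0.88 ± 0.23 (adjusted p = 0.00895).

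Smaller differences were found in other classes. Col5a1 was at -0.83 ± 0.12 (adjusted p = 7.91e-05), the opposite direction to its partner Col5a2, while its second brightest probe set, chosen after its values were seen, was at -0.02 (adjusted p = 0.905). Col4a1 was the other higher gene, at 0.46 ± 0.09 (adjusted p = 0.0015), whereas Col4a2 was at 0.23 ± 0.21 (adjusted p = 0.514) and not called. With its probe sets averaged Col4a1 was at 0.24 (adjusted p = 0.412). Col11a1 was at -0.58 ± 0.18 (adjusted p = 0.0236), Col16a1 at -0.57 ± 0.17 (adjusted p = 0.023), Col7a1 at -0.45 ± 0.11 (adjusted p = 0.00516) and Col1a2 at -0.32 ± 0.09 (adjusted p = 0.0164). The call of Col11a1 was lost without any single haploid array, that of Col16a1 without any haploid EpiSC-1 array or without haploid EpiSC-2 replicate 2, and that of Col1a2 without haploid EpiSC-1 replicate 3 or haploid EpiSC-2 replicate 3. Col23a1 was the last of the lower genes, at -1.67 ± 0.32 (adjusted p = 9.14e-04).

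**Figure D4:**
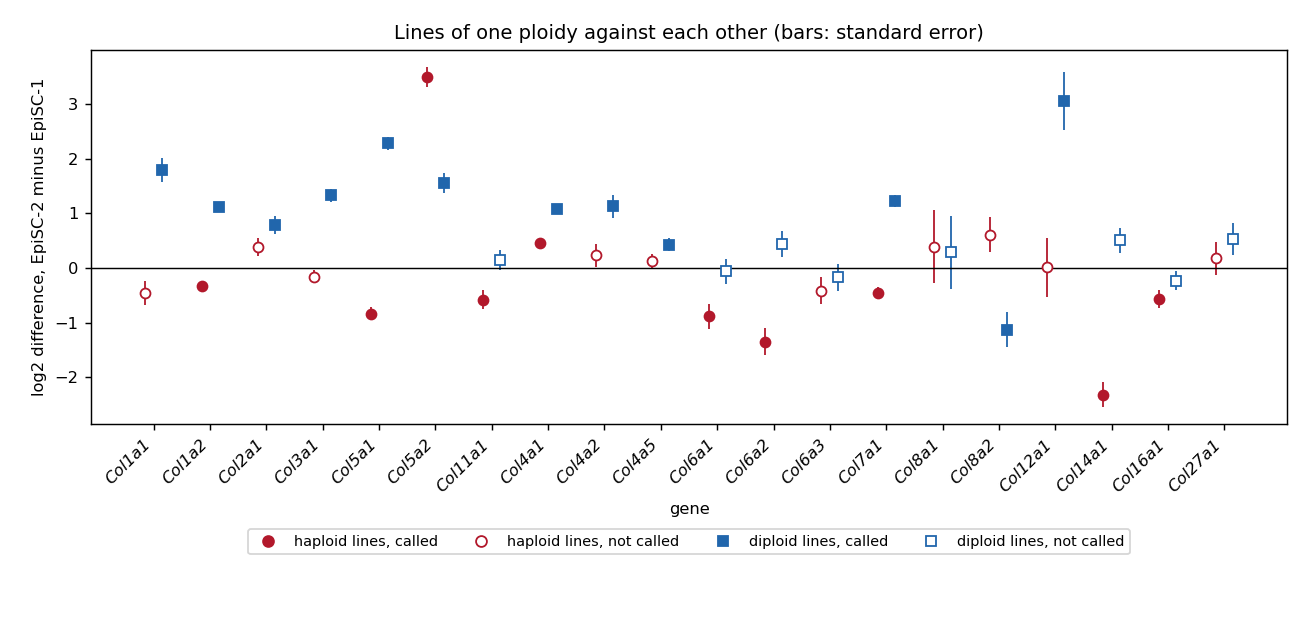
EpiSC-2 minus EpiSC-1 log2 difference within the haploid lines (red circles) and within the diploid lines (blue squares) for the 20 collagen genes called between the ploidies (horizontal axis), with bars for the standard error and filled symbols for called differences. Of the 20 genes, 11 are called higher and 1 lower between the diploid lines, and 2 higher and 8 lower between the haploid lines. Over all genes the shares are 15.6% and 16.5% between the diploid lines, and 14.5% and 18.1% between the haploid lines.

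The 20 genes called between the ploidies were also compared between lines. In diploid EpiSC-2 against diploid EpiSC-1, 11 were higher and 1 lower, where 15.6% and 16.5% of all genes were called. In haploid EpiSC-2 against haploid EpiSC-1, 2 were higher and 8 lower, where 14.5% and 18.1% of all genes were called. Among the 19 of the 20 genes with a line mean of 200 or more, the lowest line mean was that of diploid EpiSC-1 in 16. In 10 of the 19 the highest haploid mean was that of haploid EpiSC-1, near an even split. Genes called higher in haploid cells were all but bound to have a diploid line lowest. The same shares over all genes were not counted.

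The genes that make, process, bind and break down collagen were described with the same fits. Of 71 listed, 65 were matched and 31 of these were higher and 0 lower in haploid cells, where 11.5% and 9.26% of all genes were called, and the list's median log2 difference was 0.91. With line means as units 13 of the 31 calls were kept, where 2.03% of all genes were called higher. Fkbp10, Adamts2, Adamts14, Loxl2, Itga11 and Runx2 were not matched. Of the lysyl oxidases, which cross-link chains outside the cell, all 4 matched members were higher, with a median of 3.37, and the calls of Lox and Loxl1 were kept with line means as units. Loxl1 had line means (± SD, n = 3) of 473 ± 32.7 in haploid EpiSC-2 and 805 ± 35.9 in haploid EpiSC-1, against 44.97 ± 13.4 in diploid EpiSC-2 and 13.1 ± 10.8 in diploid EpiSC-1, and differed by 4.87 ± 0.66 (log2, SE, adjusted p = 7.81e-05). Lox had line means of 378 ± 13.04 in haploid EpiSC-2 and 259.9 ± 12.4 in haploid EpiSC-1, against 12.7 ± 13.98 in diploid EpiSC-2 and 19.9 ± 4.48 in diploid EpiSC-1, a difference of 4.62 ± 0.69 (log2, SE, adjusted p = 1.92e-04). Loxl4 was at 2.12 ± 0.54 (log2, SE, adjusted p = 0.0122), a call lost without haploid EpiSC-1 (adjusted p = 0.135) and with line means as units (adjusted p = 0.108). Loxl3 was at 0.73 ± 0.20 (log2, SE, adjusted p = 0.0207), with an adjusted p of 0.309 with line means as units.

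Of 15 modifying enzymes and partners 7 were higher, with a median of 0.83. Crtap and P3h1, parts of the prolyl 3-hydroxylation complex, differed by 0.83 ± 0.10 (log2, SE, adjusted p = 4.00e-05) and 1.15 ± 0.20 (log2, SE, adjusted p = 8.06e-04), and P3h4 by 1.23 ± 0.20 (log2, SE, adjusted p = 3.93e-04). With line means as units 0 of these 7 calls were kept, and the adjusted p values of Crtap, P3h1 and P3h4 were 0.132, 0.117 and 0.128. P4hb, the shared subunit of prolyl 4-hydroxylase, was at -0.04 ± 0.08 (log2, SE, adjusted p = 0.898) and the galactosyltransferase gene Colgalt1 at -0.01 ± 0.14 (log2, SE, adjusted p = 0.989), neither called.

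Of 9 genes of folding and export 5 were higher, with a median of 1.15. Serpinh1, the collagen chaperone Hsp47, had line means of 5461 ± 166 in haploid EpiSC-2 and 7579 ± 166 in haploid EpiSC-1, against 2382 ± 116 in diploid EpiSC-2 and 2299 ± 74.99 in diploid EpiSC-1. No haploid array met a diploid one, and it differed by 1.46 ± 0.11 (log2, SE, adjusted p = 2.51e-07). The prolyl isomerase gene Fkbp14 differed by 1.82 ± 0.17 (log2, SE, adjusted p = 1.57e-06) and Creb3l2, a membrane-bound transcription factor of the secretory pathway, by 2.09 ± 0.21 (log2, SE, adjusted p = 4.63e-06).

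Trimming of the end peptides had 3 of 6 genes higher, with a median of 0.50. Pcolce, an enhancer of the C-terminal proteinase, had line means of 3426 ± 184 in haploid EpiSC-2 and 4269 ± 112 in haploid EpiSC-1, against 621 ± 41.9 in diploid EpiSC-2 and 276 ± 39.5 in diploid EpiSC-1, and differed by 3.21 ± 0.25 (log2, SE, adjusted p = 2.25e-07). The proteinase gene itself, Bmp1, differed by 2.42 ± 0.40 (log2, SE, adjusted p = 5.16e-04), with an adjusted p of 0.0609 with line means as units. Adamts3 was at 1.14 ± 0.31 (log2, SE, adjusted p = 0.0184), a call lost without haploid EpiSC-1 (adjusted p = 0.181), without diploid EpiSC-2 (adjusted p = 0.0790), with line means as units (adjusted p = 0.212) and with its probe sets averaged (0.20, adjusted p = 0.929).

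Among proteoglycans that bind fibres, 3 of 6 were higher, with a median of 1.65. Dcn, which encodes decorin, had line means of 444 ± 15.8 in haploid EpiSC-2 and 333 ± 39.1 in haploid EpiSC-1, against 22.1 ± 22.4 in diploid EpiSC-2 and 57.6 ± 27.6 in diploid EpiSC-1, and differed by 3.97 ± 1.03 (log2, SE, adjusted p = 0.0134). With haploid EpiSC-2 left out its adjusted p was 0.0601, and with its probe sets averaged the difference was 1.86 (adjusted p = 0.225). Bgn, which encodes biglycan, was at 2.79 ± 0.55 (log2, SE, adjusted p = 0.00192), with an adjusted p of 0.123 with line means as units. Lum, which encodes lumican, was at 1.88 ± 0.59 (log2, SE, adjusted p = 0.04), a call lost with haploid EpiSC-2 left out (adjusted p = 0.251), with diploid EpiSC-1 left out (adjusted p = 0.0723), with line means as units (adjusted p = 0.133) and with any of 9 single arrays left out. Dcn and Lum also stand in the feeder list.

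Of 9 receptor genes 2 were higher, with a median of 0.52. Ddr2, the discoidin receptor for fibrillar collagen, had line means of 334 ± 50.96 in haploid EpiSC-2 and 172 ± 23.5 in haploid EpiSC-1, against 25.98 ± 3.31 in diploid EpiSC-2 and 19.4 ± 10.1 in diploid EpiSC-1, and differed by 3.48 ± 0.44 (log2, SE, adjusted p = 4.05e-05). Mrc2, an uptake receptor for collagen, differed by 1.69 ± 0.22 (log2, SE, adjusted p = 5.86e-05), with an adjusted p of 0.071 with line means as units. Of 11 breakdown genes and their inhibitors 5 were higher, with a median of 1.03. The 3 with the lowest p were inhibitors of matrix proteases, Timp2 at 2.53 ± 0.21 (log2, SE, adjusted p = 5.58e-07), Timp1 at 2.03 ± 0.18 (log2, SE, adjusted p = 1.32e-06) and Timp3 at 2.05 ± 0.18 (log2, SE, adjusted p = 1.02e-06).

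Of 5 transcription factors known to act on collagen genes 2 were higher, with a median of 1.04. Twist1, a mesenchymal factor, had line means of 739 ± 39.96 in haploid EpiSC-2 and 811 ± 89.9 in haploid EpiSC-1, against 61.98 ± 13.9 in diploid EpiSC-2 and 31.5 ± 14.9 in diploid EpiSC-1, and differed by 4.21 ± 0.42 (log2, SE, adjusted p = 3.28e-06). Sox9, which drives Col2a1 and Col11a2 in cartilage, differed by 2.21 ± 0.35 (log2, SE, adjusted p = 2.92e-04), with an adjusted p of 0.0591 with line means as units and 0.0619 with its probe sets averaged.

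**Figure D5:**
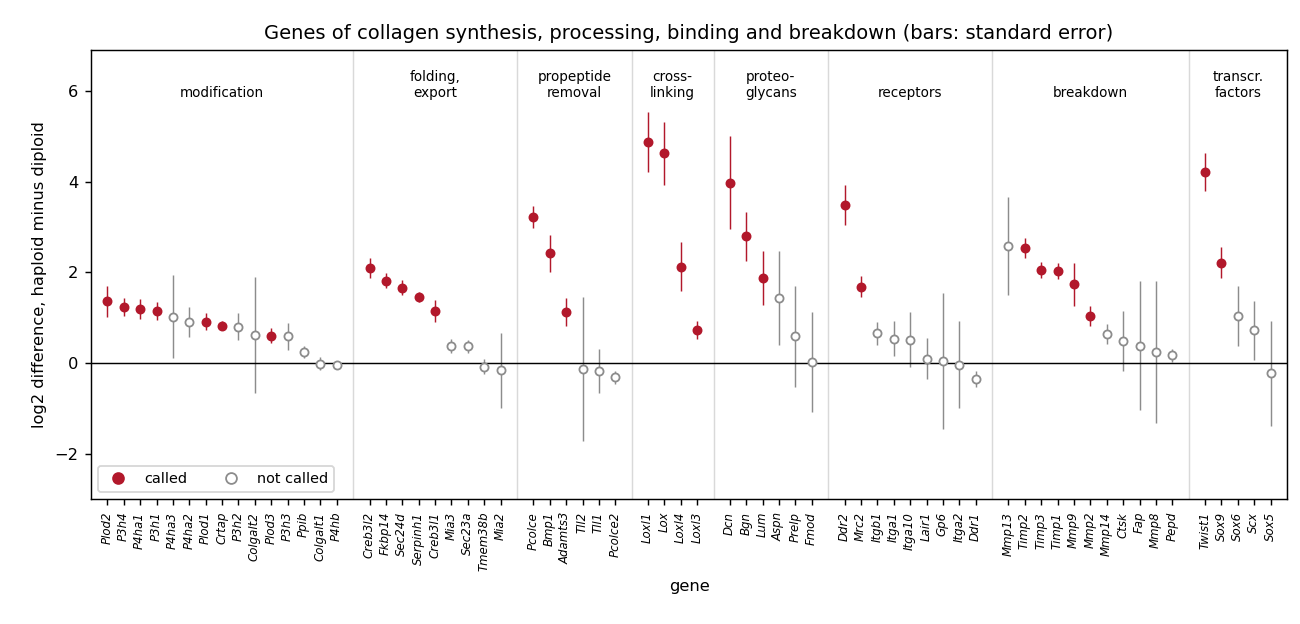
Haploid minus diploid log2 difference of the 65 matched genes of collagen synthesis, processing, binding and breakdown (vertical axis), by step and gene (horizontal axis), with bars for the standard error. Filled red points are the 31 called genes, all above 0, and the 4 cross-linking genes are all called.

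Between the haploid lines 5 of the 65 genes were higher and 28 lower in haploid EpiSC-2, against 14.5% and 18.1% of all genes, with a median of -0.35. Centring arrays on their medians left 5 of the 9 lower collagen calls of this comparison, and the calls of the 65 genes were not counted after centring. Between the diploid lines 16 were higher and 8 lower in diploid EpiSC-2, against 15.6% and 16.5%, with a median of 0.18.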

How the data were processed

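Total RNA of 12 cultures was hybridised to single-colour arrays, 3 per line. The deposited intensity values were made with MAS5, which the submitters' processing notes name without a version, and are linear. Each array averaged 500.0 once 2% of its probe sets were trimmed at either end. Of 45101 probe sets, 64 controls were left out. GEO's platform annotation, which can be old, gave 34945 probe sets 1 gene symbol, 932 several and 9160 none. Chromosomes and the windows before gene starts come from RefSeq tables of GRCm38.p6, matched by Entrez number and by symbol, and the window matches carry that build's coordinates.

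Signals were taken as log2 with no pseudocount, filter or further normalization, since the family was chosen without a filter. Haploid and diploid arrays were compared with limma 3.58.1 (R 4.3.3, statmod 1.5.0), with the 4 lines as a random block (duplicateCorrelation, correlation 0.414) and eBayes with an intensity trend. Lines of one ploidy were compared in a fit of 4 group means over all 12 arrays. Tests were two-sided, with Benjamini-Hochberg adjustment over all 45037 probe sets, and an adjusted p under 0.05 was called. Nothing in the labels says that replicates of a line came from separate derivations, so p values between lines measure the spread within lines. The block fit and the fit of group means were tried on simulated data, while the alternatives, line means among them, were not. With spread between lines simulated, the block fit called mostly unchanged probe sets, so the number of collagen and pathway calls kept with line means as units is given beside it.

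Values on every array are given for called genes with a line mean of 200 or more and for the brightest gene of each class that was not called. Between lines, the rule took up to 5 higher and 5 lower called genes with such a mean. In each step of the pathway list it took the 3 called genes of lowest p. Further genes were named after their values were seen. The members, the pathway list and the marker lists (epiblast, fibroblast feeder, parietal endoderm, visceral endoderm, mesoderm, cartilage, endothelium) were chosen with earlier results of these data known. Alternatives were a pseudocount of 16, a filter at the median probe-set signal of 62.6, quantile normalization, centring on array medians, no intensity trend, the mean of a gene's probe sets, line means, group means without the block, the replicate number as a block, and leaving out each array or line. The number of arrays limits the precision, and scan dates and detection calls were not used here.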

Additional observations from a re-analysis of the deposited data

Results flagged for a closer look

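Of the 20 collagen genes called between the ploidies, 10 also passed a test of the difference between the haploid lines, 2 higher and 8 lower. Over all genes 14.5% passed this test as higher and 18.1% as lower. By this test the haploid to diploid difference of the 10 genes was unequal in the haploid lines. Values are log2, haploid EpiSC-2 minus haploid EpiSC-1, with limma's adjusted p. Col5a2 had 3.50 (adjusted p = 1.39e-09), from 4.75 in haploid EpiSC-2 and 1.25 in haploid EpiSC-1 against the mean of the diploid lines. Col14a1 had -2.32 (adjusted p = 1.10e-06), from 1.51 and 3.83 in the same order. In type 6, Col6a2 had -1.35 (adjusted p = 4.50e-04), from 1.504 and 2.85, and Col6a1 -0.88 (adjusted p = 0.00895), from 2.68 and 3.57.

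Col5a1 had -0.83 (adjusted p = 7.91e-05), from 1.91 and 2.74, and Col4a1 had 0.46 (adjusted p = 0.0015), from 2.31 and 1.84. Col11a1 had -0.58 (adjusted p = 0.0236), from 3.09 and 3.67, and Col16a1 -0.57 (adjusted p = 0.0230), from 0.98 and 1.54. Col7a1 had -0.45 (adjusted p = 0.00516), from 1.07 and 1.52, and Col1a2 -0.32 (adjusted p = 0.0164), from 4.11 and 4.43. Centring arrays on their medians lost the calls of Col11a1, Col16a1, Col7a1 and Col1a2. Averaging probe sets lost those of Col4a1 (adjusted p = 0.412), Col11a1 (adjusted p = 0.0726) and Col1a2 (adjusted p = 0.712). In each of the 10 genes both haploid lines lay above the mean of the diploid lines.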

How the results depend on the processing

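Between the ploidies, line means as units gave 22 collagen probe sets and 12 genes as higher, in place of 34 and 20, and over all probe sets 694 higher and 308 lower in place of 3864 and 2834. Group means without the block gave 3 probe sets and 1 gene as lower, the gene being Col22a1, and over all probe sets 9329 higher and 7853 lower. The filter left 34 of the 82 probe sets and gave 2070 higher and 1492 lower over all probe sets. Centring turned the split over all probe sets to 2987 higher and 3763 lower. With its probe sets averaged Col5a3 was at -0.61 and Col6a4 at 0.027, and Col6a4 was at 0.17 without haploid EpiSC-1 and between -0.82 and 0.070 with single arrays left out. Leaving out a line gave 27 to 35 probe sets and 17 to 21 genes as higher, with 2737 to 4835 higher over all probe sets.

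Between the haploid lines a pseudocount gave 5 probe sets as higher, and the haploid arrays alone 8 probe sets and 7 genes. Over all probe sets these settings gave 4849 and 4736 as higher. Centring gave 6 probe sets and 5 genes as lower, with 7287 higher and 3671 lower over all probe sets in place of 4739 and 5799. Averaged probe sets gave 1 gene as higher. With single arrays left out, 3 to 5 probe sets were higher and 7 to 12 lower, the fewest lower without haploid EpiSC-1 replicate 3. Between the diploid lines 1 probe set and 1 gene were lower in the diploid arrays alone, 1 gene without the intensity trend, and 1 to 2 genes with single arrays left out, 1 without diploid EpiSC-2 replicate 2 or 3. Over all probe sets 6160 were lower in the diploid arrays alone and 5307 without the intensity trend. The causes were not tested.

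Each array's deviations from its line mean, over the brighter probe sets, were correlated between same-numbered arrays of different lines. These correlations were -0.0288 to 0.0849, with 0 of 18 pairs over 0.1, so the numbers gave no sign of pairing the samples. The replicate block gave 31 probe sets and 20 genes as higher between the ploidies, with 3377 higher over all probe sets. Between the haploid lines it gave 2 genes higher and 9 lower, with 4762 and 5723 over all probe sets. Between the diploid lines it gave 12 genes higher and 2 lower, with 4959 and 6302 over all probe sets. Of 46 genes named between the ploidies, 22 kept their direction and side of the threshold under every alternative run, as did 5 of 10 between the haploid lines and 6 of 6 between the diploid lines. Signals near the background and the lack of detection calls limit the size of folds such as those of Col8a1 and Col12a1.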
